A study of Mus musculus with 6 samples.

Results

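The 10 genes described here encode receptors for itch mediators and a shared signalling enzyme: the histamine H1 receptor Hrh1, the cysteinyl leukotriene receptor Cysltr2, the prostaglandin D2 receptor Ptgdr, the cytokine receptor chains Il31ra, Osmr, Il6st, Lifr, Il4ra and Il13ra1, and the phospholipase C gene Plcb3. They were chosen by symbol, with earlier results of these data known. All 10 were among the 23029 genes of the deposited table of read counts scaled to gene length and sequencing depth (RPKM). Expression was measured by RNA-seq in 3 subsets that were sorted from dorsal root ganglia (DRG) of mice, where somatosensory neurons have their somata. The genotype of all 3 subsets is GINIP+/mcherry, a mouse heterozygous for an mCherry reporter at GINIP, which encodes a partner of Gi alpha subunits, and the other sorting label was the lectin isolectin B4 (IB4). The DP gate took IB4+GINIP+ cells, labelled as Mrgprd+ neurons, the C-LTMR gate (low-threshold mechanoreceptors with C fibres) took IB4-GINIP+ cells, and the DN gate took IB4-GINIP- cells, labelled as the remaining sensory neurons. With 2 libraries a subset, every mean ± SD has n = 2. The labels give no age and name no separate animals for the replicates. The p-values therefore reflect the spread between these libraries, which may be technical.

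As background, itch is carried by several kinds of DRG neurons. Mast cells and other immune cells release histamine, leukotrienes and prostaglandin D2, which act on G protein-coupled receptors, and Gq-coupled receptors such as the H1 receptor signal through phospholipase C beta to release calcium from internal stores. T helper cytokines act on receptors built from pairs of chains that signal through JAK kinases and STAT factors. IL-31 binds Il31ra paired with Osmr, oncostatin M binds Osmr paired with Il6st (gp130), leukaemia inhibitory factor binds Lifr paired with Il6st, and IL-4 and IL-13 bind Il4ra paired with Il13ra1. In mouse DRG, neurons that make the peptide Nppb are known for Il31ra, Osmr and Cysltr2, and Mrgpra3 neurons for responses to histamine and chloroquine.

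Of the windows around the annotated start sites 4 are shown, the 3 poorest in CpG (Il31ra, Cysltr2 and Ptgdr) and, as an example of the CpG-rich ones, that of Hrh1. RefSeq holds 4 windows for Hrh1 and 2 for Lifr, and the one nearest to the deposited gene start was taken. Which start site these cells use was not tested. Sequences are RefSeq's for GRCm38.p6, 250 bases before to 50 bases after the start site, 5′ to 3′ on the gene's strand, with CpG dinucleotides in capitals. The windows are chr13:112580613-112580912 (minus strand) for Il31ra, chr14:73049065-73049364 (minus) for Cysltr2, chr14:44859326-44859625 (minus) for Ptgdr and chr6:114397686-114397985 (plus) for Hrh1.
Il31ra: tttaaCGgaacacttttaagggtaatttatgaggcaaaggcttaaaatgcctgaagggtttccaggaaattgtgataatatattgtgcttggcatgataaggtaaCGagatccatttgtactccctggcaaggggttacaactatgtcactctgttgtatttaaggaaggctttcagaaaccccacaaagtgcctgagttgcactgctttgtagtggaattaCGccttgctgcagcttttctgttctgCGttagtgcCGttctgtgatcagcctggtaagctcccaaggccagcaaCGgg
Cysltr2: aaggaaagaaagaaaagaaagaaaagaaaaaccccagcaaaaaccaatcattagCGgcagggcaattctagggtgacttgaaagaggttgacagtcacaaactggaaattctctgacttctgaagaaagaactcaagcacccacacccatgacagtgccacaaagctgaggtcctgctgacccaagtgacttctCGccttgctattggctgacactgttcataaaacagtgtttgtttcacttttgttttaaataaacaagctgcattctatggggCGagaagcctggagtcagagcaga
Ptgdr: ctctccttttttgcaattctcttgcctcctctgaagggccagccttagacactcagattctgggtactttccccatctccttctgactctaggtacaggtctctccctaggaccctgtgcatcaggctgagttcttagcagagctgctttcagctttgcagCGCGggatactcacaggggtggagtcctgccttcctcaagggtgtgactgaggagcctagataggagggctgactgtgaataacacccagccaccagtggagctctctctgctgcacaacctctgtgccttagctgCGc
Hrh1: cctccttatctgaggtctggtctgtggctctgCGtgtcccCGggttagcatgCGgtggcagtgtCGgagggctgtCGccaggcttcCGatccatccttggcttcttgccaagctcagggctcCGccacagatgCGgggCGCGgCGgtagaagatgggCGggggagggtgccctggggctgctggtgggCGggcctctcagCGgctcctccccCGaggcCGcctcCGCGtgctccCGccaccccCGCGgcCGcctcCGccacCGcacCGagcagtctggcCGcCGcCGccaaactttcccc

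The 300-base windows held 6 CpG in Il31ra, 3 in Cysltr2 and 3 in Ptgdr, against 28 in Hrh1. Their CpG observed over expected was 0.407, 0.21 and 0.135 in the same order, against 0.728 in Hrh1. The other 6 windows lay between 0.705 (Osmr) and 1.07 (Lifr), so 3 of 10 members were under 0.5, against 28.9% of 15434 windows of genes that passed the expression filter. A share of 3 in 10 is close to that background. Of the 6 members highest in DP, 3 had these CpG-poor windows, and Plcb3 (0.802), Il6st (0.943) and Lifr (1.07) lay above Hrh1. The members highest in C-LTMR or DN lay from 0.705 (Osmr) to 0.935 (Il4ra). A link between CpG content and subset was not tested over these 10 genes. Of the sequence motifs searched on both strands, the STAT motif TTCNNNGAA was in the Il31ra window alone among the members (TTCCAGGAA, from -191 to -183 relative to the start site), against 8.3% of 32851 windows. The motifs TGTGGT (RUNX), TGACG (cyclic AMP response element core) and TATAAA were in 0 of the 10 windows and in 16.8%, 20.8% and 13.6% of all windows. A match is a description of the letters and not of a site in use.

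**Figure D1:**
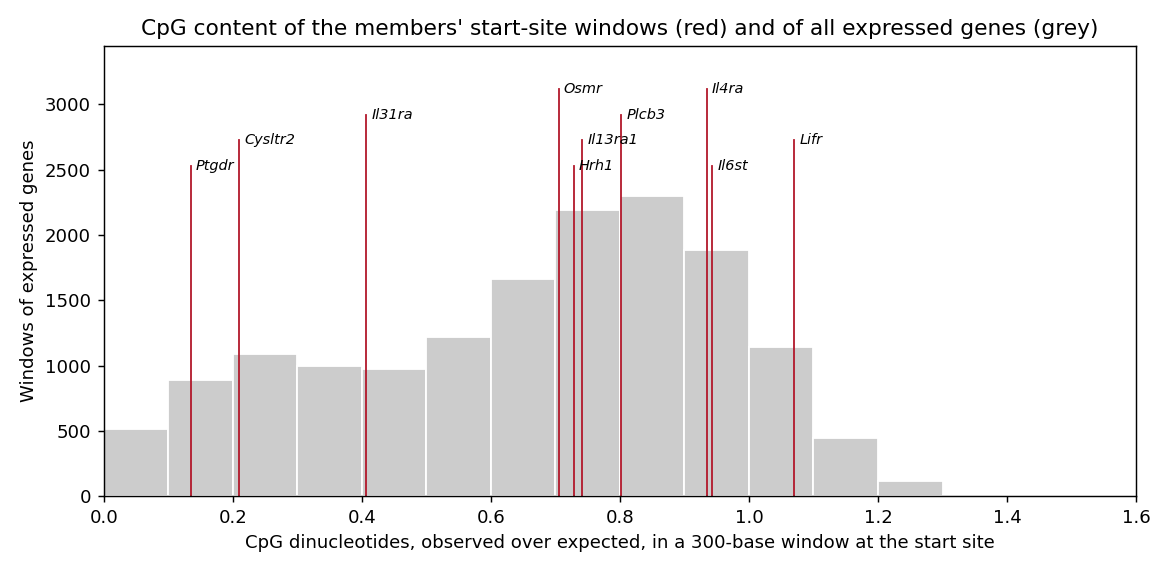
CpG observed over expected (x axis, ratio) in 300-base windows at start sites, with the number of windows of expressed genes in grey bars (y axis) and each of the 10 genes as a red line. Ptgdr, Cysltr2 and Il31ra lie at 0.135, 0.21 and 0.407, and the others lie from 0.705 to 1.07.

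Across the whole series, libraries held an estimated 32.3 to 42.1 M reads, and the replicates of a subset correlated with Pearson's r between 0.988 and 0.994 over the log2 values of 15544 genes. Defining genes followed the sort: Mrgprd, the DP marker, was at 220 and 277 RPKM in DP, 1.32 and 2.01 in C-LTMR and 0.345 and 0.953 in DN, and Th, the C-LTMR marker, at 48.8 and 61.7, 1017 and 1038, and 31.7 and 14.2. DN held markers of other cells. Summed over 14 satellite glia and Schwann cell markers, RPKM was 1292 and 1784 in DP, 2401 and 3323 in C-LTMR and 8928 and 18728 in DN. For 9 endothelial markers the sums were 10.4 and 8.72, 47.4 and 47.3, and 276 and 438, and for 10 pericyte and fibroblast markers 21.8 and 23.9, 7.2 and 10.6, and 326 and 470.1, in the same order of subsets. Egfl7 alone made up most of the endothelial sums in C-LTMR, at 46.9 and 47.0. In DP over C-LTMR it was called lower, and 2 of the 9 endothelial markers were called higher. DP stood apart in 5 neutrophil markers, summed to 218 and 249 in DP, 0.185 and 0.207 in C-LTMR and 31.2 and 60.8 in DN. Markers of macrophages and other leukocytes summed to 43.1 and 40.8 in DP, 5.39 and 9.81 in C-LTMR and 39.6 and 65.0 in DN. Of 8 tested, 5 were called higher and 0 lower in DP over C-LTMR, against 6.65% and 8.52% of all genes. In DP over DN 1 was called higher and 4 lower, against 7.75% and 25.5%. In sorted bulk samples, fewer cells of a type and less RNA per cell cannot be told apart.

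Tests used limma on log2(RPKM + 0.1) over the 15544 genes at 0.1 RPKM or more in at least 2 libraries, with all 6 libraries in the fit. Called genes had a p under 0.05 after Benjamini-Hochberg (BH) adjustment and a log2 fold change of 1 or more in size. All 10 members passed the filter, each through libraries of at least 2 subsets. Between DP and C-LTMR, 7 of 10 members were called, 5 higher and 2 lower in DP, where 15.2% of all genes tested were called (6.65% higher and 8.52% lower). The median log2 fold change of the members was 1.11, against -0.05 over all genes. Between DP and DN, 6 of 10 were called, 5 higher and 1 lower in DP, against 33.3% of all genes (7.75% higher and 25.5% lower), with medians of 0.94 and -0.20. Between C-LTMR and DN, 3 of 10 were called, 1 higher and 2 lower in C-LTMR, which is near the 32.1% of all genes (8.58% higher and 23.5% lower). The comparisons share libraries and are not independent of each other. Because the members were chosen with earlier results of these data known, these counts and medians do not test the members against all genes.

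**Figure D2:**
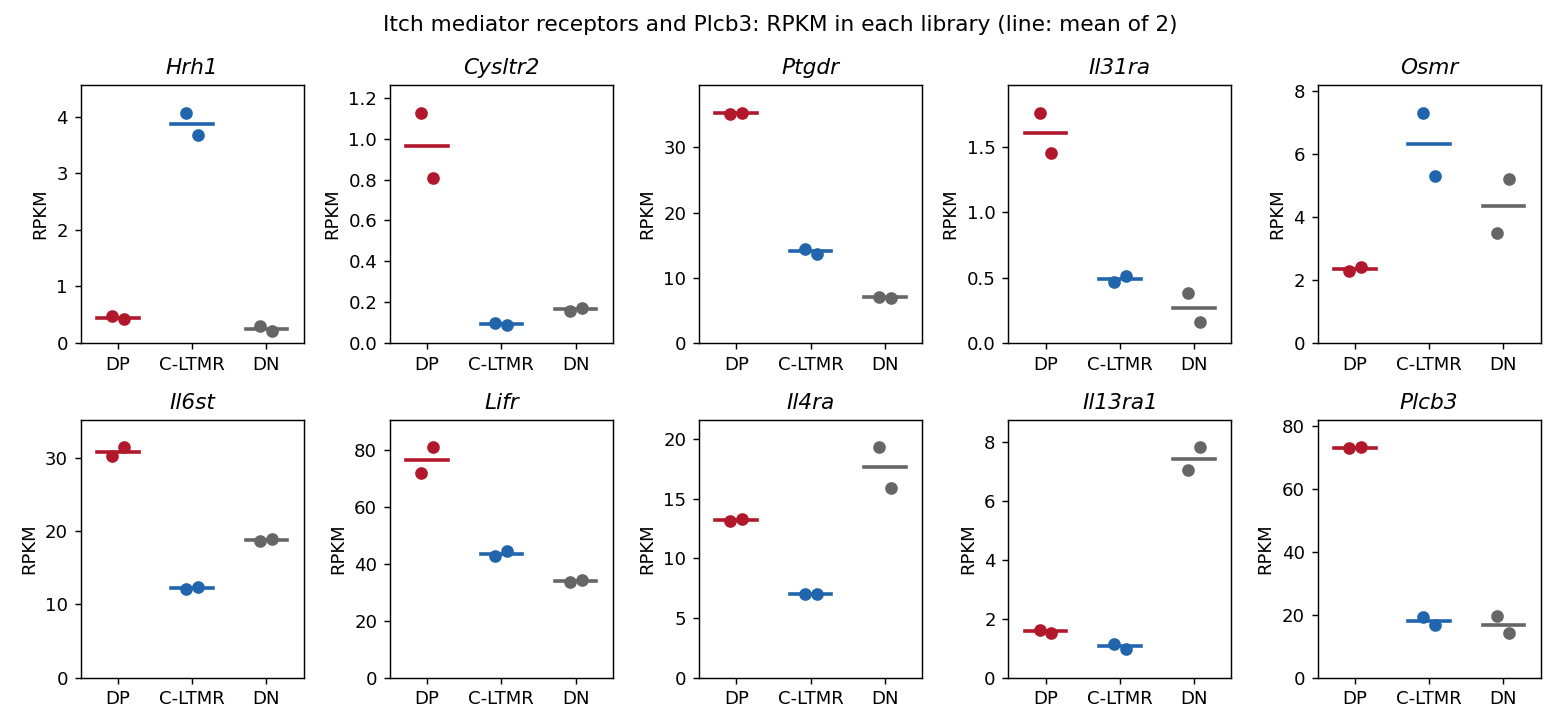
RPKM (y axis, linear, from 0) of the 10 genes in each library, with DP, C-LTMR and DN from left to right. Points are libraries and lines are means of 2. Cysltr2, Ptgdr, Il31ra, Il6st, Lifr and Plcb3 were highest in DP, Hrh1 and Osmr in C-LTMR, and Il4ra and Il13ra1 in DN.

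**Figure D3:**
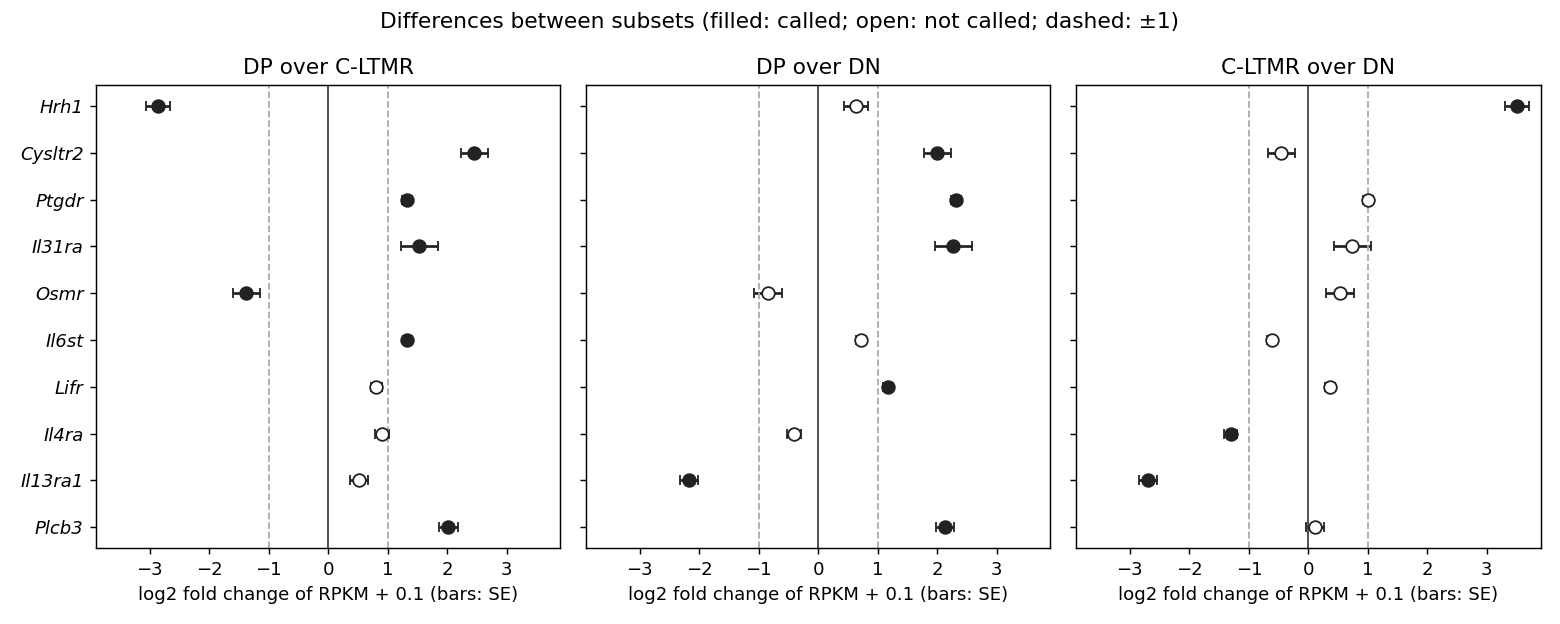
Log2 fold change (x axis) of each gene in the 3 comparisons, with SE bars, filled points for called genes and open points for the others. Hrh1 and Osmr lie left of 0 in DP over C-LTMR (-2.86 and -1.38), and Il13ra1 lies left of 0 in both comparisons with DN (-2.17 and -2.70).

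Of the 3 members that are receptors for small mediators, Hrh1 alone was highest in C-LTMR. It was at 0.478 and 0.416 RPKM in DP, 4.08 and 3.67 in C-LTMR and 0.296 and 0.213 in DN, so that the C-LTMR libraries lay above all 4 others. Hrh1 encodes the Gq-coupled H1 receptor (Entrez 15465, chromosome 6, 114397936 to 114483296, GRCm38). It was 7.27-fold lower in DP than in C-LTMR (log2 fold change -2.86, SE 0.202, limma adjusted p = 0.000168) and 11.3-fold higher in C-LTMR than in DN (3.50, adjusted p = 2.65e-05). DP over DN was not called (log2 fold change 0.63). It was called under quantile normalization (1.53, adjusted p = 0.00104), and its sign turned when libraries were rescaled to pan-sensory-neuron genes (-0.47, not called). The low values rest on few reads, an estimated 76.0 and 60.2 in DP and 43.6 and 26.0 in DN, against 528 and 449 in C-LTMR. Mrgpra3, the chloroquine receptor gene of an itch neuron type, was at 17.5 and 16.2 RPKM in DP, 259 and 190 in C-LTMR and 0 and 0.12 in DN, though its reads may be shared with paralogs. Mrgprx1, another Mas-related receptor of those neurons, was at 0.571 and 1.48 in DP, 5.41 and 6.59 in C-LTMR and 0.834 and 0.778 in DN. Whether cells with these receptors in the C-LTMR gate carry the Hrh1 RNA was not tested.

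Cysltr2, the receptor for cysteinyl leukotrienes (Entrez 70086, chromosome 14, 73029128 to 73049114), was low everywhere and highest in DP. It was at 1.13 and 0.806 RPKM in DP, 0.0973 and 0.0873 in C-LTMR and 0.155 and 0.173 in DN. The groups did not overlap, but an estimated 5.9 and 5.0 reads stood behind the C-LTMR values and 10.6 and 9.8 behind those of DN, against 83.6 and 54.3 in DP. The log2 fold change was 2.46 in DP over C-LTMR (SE 0.229, limma adjusted p = 0.00045) and 2.001 in DP over DN (adjusted p = 0.000434). With a pseudocount of 1, which weighs down genes of this level, these were 0.84 and 0.75 and were no longer called. After rescaling to pan-sensory-neuron genes, DP over DN was 0.89 and not called, and C-LTMR over DN, not called as deposited (-0.46), was -1.33 and called (adjusted p = 0.00535).

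Ptgdr, the Gs-coupled D prostanoid receptor (Entrez 19214, chromosome 14, 44851235 to 44859375), was by far the highest of these G protein-coupled receptors in RPKM. It was at 35.1 and 35.3 in DP, 14.4 and 13.7 in C-LTMR and 7.09 and 6.88 in DN, a stepwise order with no overlap. The log2 fold change was 1.32 in DP over C-LTMR (SE 0.087, limma adjusted p = 0.000133) and 2.32 in DP over DN (adjusted p = 8.48e-06). C-LTMR over DN was 0.999, just short of the fold criterion (adjusted p = 0.000134), and depended on the setting. It passed without C-LTMR replicate 2 (1.04), without DN replicate 1 (1.02), with a pseudocount of 0.01 (1.01) and under quantile normalization (1.20), and fell to 0.13 after rescaling to pan-sensory-neuron genes (adjusted p = 0.463). In GENCODE M21, exons of Ptgdr overlap those of Gm16976 on the opposite strand by up to 705 bases, and the use of strand is not given in the sources used here, so reads of the overlap cannot be told apart.

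Among other receptors for these mediators, 9 of 10 listed symbols were in the table and 4 passed the filter. The histamine H3 receptor gene Hrh3, known in the nervous system as a Gi-coupled autoreceptor, was at 0.684 and 0.912 RPKM in DP, 7.81 and 7.88 in C-LTMR and 4.5 and 3.34 in DN. Like Hrh1 it was lower in DP than in C-LTMR (log2 fold change -3.16, SE 0.199, limma adjusted p = 0.000118), and unlike Hrh1 it was also called lower in DP than in DN (-2.16, adjusted p = 0.000171). Ltb4r2, a leukotriene B4 receptor gene, was at 0.033 and 0.0102 in DP, 0.26 and 0.215 in C-LTMR and 0.0357 and 0.0215 in DN. It was lower in DP than in C-LTMR (-1.48) and higher in C-LTMR than in DN (1.39). Its relative Ltb4r1 was higher than in DN in both DP (1.52) and C-LTMR (2.01). Cysltr1 was listed at 0 in DP and C-LTMR and at 0.0229 and 0.134 in DN, and Hrh4 was listed at 0 in all 6 libraries.

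Plcb3, a phospholipase C beta that acts after Gq-coupled receptors and is known from mouse itch studies (Entrez 18797, chromosome 19, 6953713 to 6969752), was at 73.1 and 73.3 RPKM in DP, 19.4 and 16.8 in C-LTMR and 19.5 and 14.3 in DN. DP lay far above both others, and the C-LTMR and DN libraries overlapped. It was 4.04-fold higher in DP than in C-LTMR (log2 fold change 2.02, SE 0.156, limma adjusted p = 0.000234) and 4.37-fold higher than in DN (2.13, adjusted p = 6.92e-05). C-LTMR over DN was 0.11 (SE 0.156, adjusted p = 0.57), and its sign turned without DN replicate 2 (-0.11) and after rescaling to pan-sensory-neuron genes (-0.76).

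The other genes of the Gq and phospholipase C pathway moved in both directions. Of 15 listed, 14 passed the filter. In DP over C-LTMR 3 were higher and 4 lower, and in DP over DN 2 were higher and 7 lower, with median log2 fold changes of -0.25 and -1.12. Over all genes 6.65% were higher and 8.52% lower in DP over C-LTMR, and 7.75% higher and 25.5% lower in DP over DN. Gna14, a Gq family alpha subunit, was at 109 and 101 RPKM in DP, 25.9 and 20.5 in C-LTMR and 1.99 and 1.83 in DN, and was called between all 3 pairs (2.18, 5.71 and 3.53). Gnaq, the Gq alpha subunit itself and named here after its values were seen, was at 281 and 299 in DP, 113 and 114 in C-LTMR and 76.6 and 81.9 in DN. It was higher in DP than in C-LTMR (log2 fold change 1.35, limma adjusted p = 0.000112) and than in DN (1.87, adjusted p = 1.32e-05). Plcb1, a paralog of Plcb3, ran the other way, at 0.831 and 1.07 RPKM in DP, 3.46 and 3.77 in C-LTMR and 3.31 and 3.93 in DN, and was lower in DP than in either (-1.83 in both comparisons). Plcg2, a phospholipase C gene known from blood cells, was also lower in DP than in C-LTMR (-1.53) and than in DN (-2.595). Itpr3 and Itpr2, calcium release channels of internal stores, were lower than in DN in DP (-2.96 and -2.59) and in C-LTMR (-3.33 and -2.63). The delta isoform gene Plcd1 was higher in DP than in C-LTMR (1.74) and lower in DP than in DN (-1.85).

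Of the IL-31 receptor, the ligand-binding chain and its partner were highest in different subsets. Il31ra (Entrez 218624, chromosome 13, 112522807 to 112580662) was at 1.76 and 1.45 RPKM in DP, 0.468 and 0.513 in C-LTMR and 0.379 and 0.161 in DN. Osmr, the chain shared by the IL-31 and oncostatin M receptors (Entrez 18414, chromosome 15, 6813577 to 6874313), was at 2.27 and 2.41 in DP, 7.31 and 5.3 in C-LTMR and 3.5 and 5.2 in DN. For Il31ra DP lay above all other libraries, and for Osmr below them. In the same RPKM scale, Il31ra was at 0.69 ± 0.124 of the level of Osmr in DP libraries, 0.0803 ± 0.0231 in those of C-LTMR and 0.0695 ± 0.0547 in those of DN.

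Il31ra was higher in DP than in C-LTMR (log2 fold change 1.53, SE 0.309, limma adjusted p = 0.0115) and than in DN (2.27, adjusted p = 0.000949). The call against C-LTMR was lost without DP replicate 1 (adjusted p = 0.0857), DP replicate 2 (0.0502), C-LTMR replicate 1 (0.0629) or C-LTMR replicate 2 (0.0532), with no filter on low values (0.0832), and by size with a pseudocount of 1 (0.80). C-LTMR over DN was not called (0.74, adjusted p = 0.0802), and was 1.18 without DN replicate 1 (adjusted p = 0.0108). Osmr was 2.596-fold lower in DP than in C-LTMR (log2 fold change -1.38, SE 0.231, adjusted p = 0.00546), a call lost with no filter (adjusted p = 0.0579). DP over DN was -0.84 and not called (adjusted p = 0.0183), and was called without DN replicate 1 (-1.12, adjusted p = 0.0149) and after rescaling (-1.95).

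Markers of Nppb and Mrgpra3 itch neurons differed in direction between DP and C-LTMR. Of 12 listed genes, 4 were called higher and 3 lower in DP than in C-LTMR, against 6.65% and 8.52% of all genes. The lower ones were Mrgpra3 (log2 fold change -3.71), Mrgprx1 (-2.56) and the gastrin-releasing peptide gene Grp (-1.71). The neurotensin gene Nts was at 17.6 and 7.02 RPKM in DP, 2.71 and 0.551 in C-LTMR and 1.58 and 2.44 in DN, and Sst, the somatostatin gene of the Nppb neurons, at 4.44 and 4.49, 1.61 and 0.517, and 1.33 and 0.155. Nppb, named here after its values were seen, was at 4.78 and 3.87 in DP, 0.824 and 1.46 in C-LTMR and 4.16 and 1.38 in DN. Nts and Nppb were higher in DP than in C-LTMR (log2 fold change 3.05 and 1.87, limma adjusted p = 0.0203 and 0.031), and Nts and Sst higher in DP than in DN (2.44 and 2.92). The irritant channel gene Trpa1 was higher in DP than in C-LTMR (2.06) and than in DN (1.44). In DP over DN, 4 of the 12 were called higher and 3 lower, against 7.75% and 25.5% of all genes. The higher ones included Mrgpra3 (6.84). The lower ones were the heat and capsaicin channel gene Trpv1 (-2.84), the neuropeptide Y receptor gene Npy2r (-1.56) and Grp (-1.44). Trpv1 and Npy2r were also lower in C-LTMR than in DN (-2.25 and -2.45). Nppb was not called in DP over DN (0.81, adjusted p = 0.2), and its level in DN replicate 1 was above that in DP replicate 2, whereas Il31ra and Cysltr2 were low in both DN libraries. The neutrophil markers given above were highest in DP, as were Il31ra and Cysltr2. Most tested macrophage and other leukocyte markers were also called higher in DP than in C-LTMR. The part of either marker set in the levels of these receptors was not tested.

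The shared gp130 chain Il6st was above Osmr and below Lifr in RPKM in each library. It (Entrez 16195, chromosome 13, 112464070 to 112506860) was at 30.3 and 31.5 RPKM in DP, 12.1 and 12.4 in C-LTMR and 18.7 and 18.9 in DN, with no overlap between subsets. It was 2.51-fold higher in DP than in C-LTMR (log2 fold change 1.33, SE 0.0825, limma adjusted p = 0.000114). DP over DN (0.71, adjusted p = 0.000459) and C-LTMR over DN (-0.62, adjusted p = 0.000872) fell short of the fold criterion. After rescaling to pan-sensory-neuron genes DP over DN became -0.39, and C-LTMR over DN became -1.49 and was called (adjusted p = 0.000114). Osmr was at 0.0757 ± 0.00127 of the level of Il6st in DP libraries, 0.517 ± 0.124 in those of C-LTMR and 0.231 ± 0.0622 in those of DN.

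Lifr, the leukaemia inhibitory factor receptor (Entrez 16880, chromosome 15, 7129572 to 7197489), had the highest RPKM of the 6 cytokine receptor chains in each library. It was at 71.9 and 80.8 in DP, 42.6 and 44.4 in C-LTMR and 33.5 and 34.2 in DN. DP was above C-LTMR by 0.81 on the log2 scale (SE 0.0892, limma adjusted p = 0.000926), under the fold criterion, and higher than DN by 1.17 (adjusted p = 8.01e-05). After rescaling, DP over DN was 0.06 and not called, and C-LTMR over DN turned from 0.36 to -0.51.

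Some chains of these receptors lie in pairs in the genome, though not as they are paired in the receptors. Il6st and Il31ra are neighbours on chromosome 13, with 15946 bases and 0 annotated RefSeq genes between them, and Osmr and Lifr share chromosome 15, with 255258 bases and 3 annotated genes between them, 0 of them protein-coding. Il6st and Il31ra were both called higher in DP than in C-LTMR, but differed in direction in C-LTMR over DN (-0.62 and 0.74, neither called). Osmr and Lifr differed in direction in DP over C-LTMR, at -1.38 and 0.81, and shared it in C-LTMR over DN (0.53 and 0.36, neither called). The level of Osmr relative to Lifr was 0.0307 ± 0.00118 in DP libraries, 0.146 ± 0.0369 in those of C-LTMR and 0.128 ± 0.0335 in those of DN.

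Both chains of the type 2 receptor for IL-4 and IL-13 were highest in DN. Il4ra, the chain that binds IL-4 (Entrez 16190, chromosome 7, 125552282 to 125579474), was at 13.2 and 13.3 RPKM in DP, 7.04 and 7.0 in C-LTMR and 19.3 and 15.9 in DN. It was 2.48-fold lower in C-LTMR than in DN (log2 fold change -1.31, SE 0.116, limma adjusted p = 0.000146). DP over C-LTMR was 0.905 and DP over DN -0.40, both under the fold criterion (adjusted p = 0.00176 and 0.0224). Exons of Il4ra overlap Gm44876 on the opposite strand by up to 571 bases. Il13ra1, the chain that binds IL-13 (Entrez 16164, chromosome X, 36112139 to 36171261), was at 1.61 and 1.53 in DP, 1.14 and 0.982 in C-LTMR and 7.03 and 7.81 in DN. It was lower than in DN in both DP (-2.17, SE 0.152, adjusted p = 5.68e-05) and C-LTMR (-2.70, adjusted p = 2.45e-05), and DP over C-LTMR was not called (0.52). Relative to Il4ra, Il13ra1 was at 0.118 ± 0.00528 in DP libraries, 0.151 ± 0.0155 in those of C-LTMR and 0.427 ± 0.0893 in those of DN. The glial, endothelial and fibroblast sums given above were also highest in DN, and their part in the levels of these chains was not tested.

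Other receptor chains followed DN in most cases. Of 10 listed, 8 passed the filter, and 6 were lower in DP than in DN and 5 lower in C-LTMR than in DN, with 0 higher in either. Over all genes 25.5% were lower in DP than in DN and 23.5% lower in C-LTMR than in DN, and 7.75% and 8.58% were higher. Il2rg, the common gamma chain that pairs with Il4ra in the type 1 IL-4 receptor, was at 2.4 and 2.13 RPKM in DP, 2.66 and 1.98 in C-LTMR and 8.67 and 9.9 in DN. Cntfr, the ciliary neurotrophic factor chain that works with Lifr and Il6st, was at 0.533 and 0.753 in DP, 1.95 and 2.68 in C-LTMR and 4.28 and 4.78 in DN, and was lower in DP than in C-LTMR (-1.70) and than in DN (-2.65). Il17ra was higher in DP than in C-LTMR (1.62) and lower in DP than in DN (-2.81). Il11ra1 and Il6ra, ligand-binding chains that pair with Il6st, were lower than in DN in DP (-2.67 and -2.41) and in C-LTMR (-2.27 and -3.34). Crlf2, a chain of the receptor for the itch cytokine TSLP, was at 7.95 and 6.24 in DP, 8.24 and 7.3 in C-LTMR and 9.23 and 7.07 in DN, and was not called in any of the 3 comparisons.

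Among JAK and STAT genes, 18 of 19 listed passed the filter. In DP over C-LTMR 1 was higher and 0 were lower, in DP over DN 1 was higher and 7 were lower, and in C-LTMR over DN 0 were higher and 4 lower. Over all genes 25.5% were lower in DP than in DN and 23.5% lower in C-LTMR than in DN, so 4 of 18 is near the background. Jak1, the kinase bound by most of these receptors, was the highest of the JAK genes, at 34.6 and 35.2 RPKM in DP, 61.1 and 56.1 in C-LTMR and 41.2 and 43.4 in DN, and was not called (log2 fold change -0.75 in DP over C-LTMR). Stat3, the main factor after gp130, was at 132 and 143 in DP, 107 and 116 in C-LTMR and 132 and 126 in DN, and Stat6, that of the IL-4 receptor, at 23.4 and 24.5, 23.4 and 21.3, and 17.7 and 14.8, and neither was called in any comparison. The feedback inhibitors Socs3, Socs1 and Cish were lower than in DN in DP (-1.75, -2.20 and -2.41) and in C-LTMR (-1.90, -2.13 and -2.26), and were not called in DP over C-LTMR (0.15, -0.07 and -0.16). Jak3, the kinase of the common gamma chain, was also lower than in DN in DP (-2.22) and C-LTMR (-1.83). Ptpn6, a phosphatase known mainly from blood cells, was the gene called higher in DP, at 1.44 and 1.04 RPKM, against 0.205 and 0.199 in C-LTMR and 0.196 and 0.267 in DN. In C-LTMR over DN, Ptpn6 was not called (-0.13). Neutrophil marker sums were highest in DP too, and most tested macrophage and other leukocyte markers were called higher in DP than in C-LTMR. The part of either marker set in the level of Ptpn6 was not tested.

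**Figure D4:**
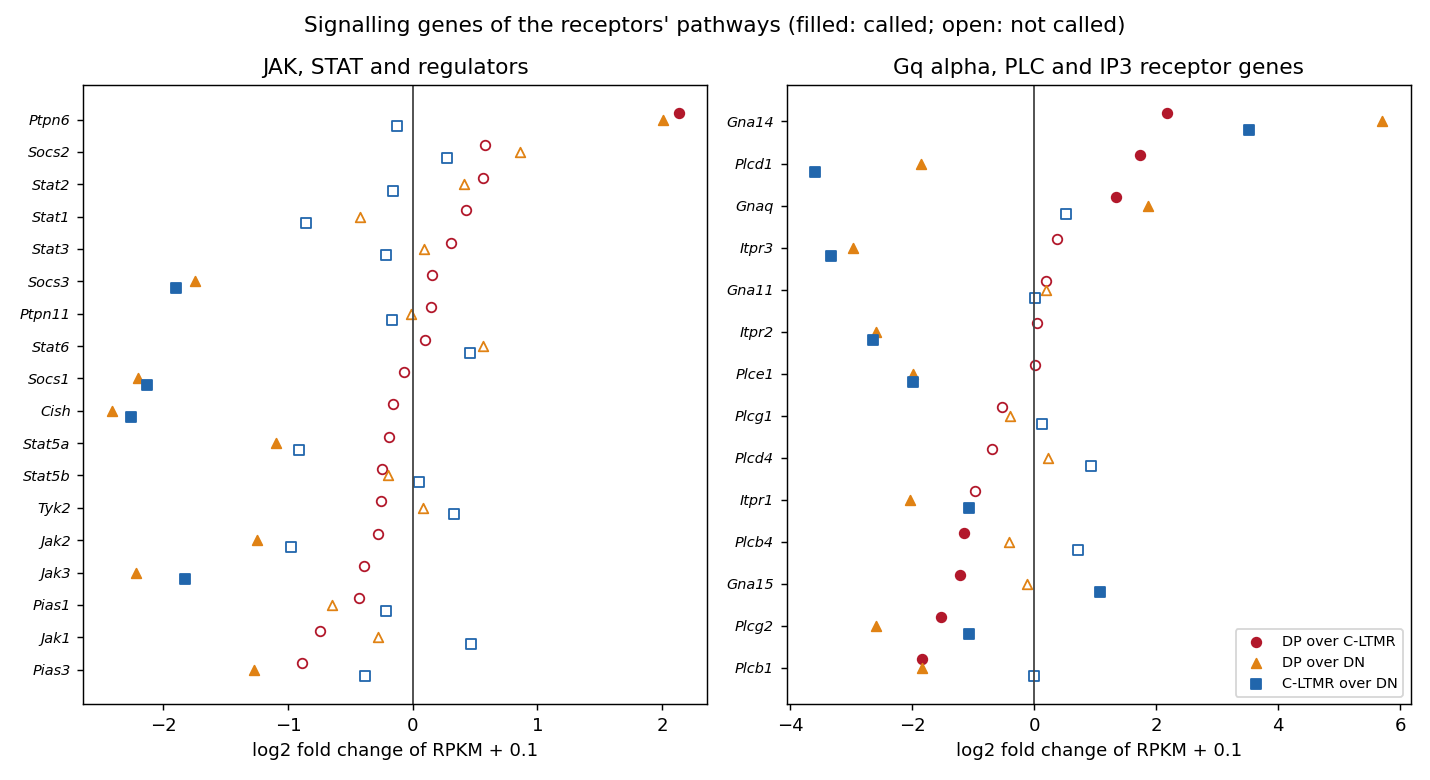
Log2 fold changes (x axis) of 32 tested JAK and STAT genes (left) and Gq and phospholipase C genes (right) in the 3 comparisons, ordered by DP over C-LTMR. Filled symbols are called genes. Most called JAK and STAT genes lie left of 0 in the comparisons with DN, and Gna14 lies right of 0 in all 3 (2.18, 5.71 and 3.53).

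Il6 had the highest RPKM of the ligand genes in each DP and DN library. Of 12 listed ligand genes 9 passed the filter. Il6, a ligand that signals through Il6st with Il6ra, was at 3.35 and 4.58 RPKM in DP, 1.92 and 3.23 in C-LTMR and 56.9 and 99.8 in DN (log2 fold change -4.23 in DP over DN and -4.86 against DN in C-LTMR, limma adjusted p = 9.52e-05 and 5.28e-05). Osm was at 0.174 and 0.192 in DP, listed at 0 in both C-LTMR libraries, and at 0.121 and 0.0812 in DN. Il31 was listed at 0 in DP and C-LTMR and at 0 and 0.0382 in DN, Il13 was listed at 0 in all 6 libraries, and Il4 was at 0.0282 in DP replicate 1 and listed at 0 elsewhere. Il33 and Tslp, cytokines of barrier cells, and Cntf, a ligand of the Cntfr, Lifr and Il6st complex, were called lower in DP than in DN (-3.93, -1.91 and -2.78) and in C-LTMR than in DN (-4.16, -2.15 and -2.92). Tslp was low throughout, at 0 and 0.0392 RPKM in DP, listed at 0 in C-LTMR and at 0.192 and 0.573 in DN. The pseudocount of 0.1 therefore weighs on its folds. Ctf1, which acts through Lifr and Il6st, was lower in DP than in C-LTMR (-1.48) and than in DN (-1.66). Of the mediator enzymes, the histamine-making enzyme gene Hdc was at 1.01 and 0.672 in DP, 2.16 and 1.98 in C-LTMR and 1.05 and 0.844 in DN, and was called lower in DP than in C-LTMR (-1.23) and higher in C-LTMR than in DN (1.06). Hnmt, which degrades histamine, was at 1.77 and 1.4, 0.925 and 0.454, and 16.5 and 16.5. Prostaglandin enzyme genes were called lower than in DN in both other subsets: Ptgds, a prostaglandin D synthase (-4.07 in DP and -2.88 in C-LTMR), and the cyclooxygenases Ptgs2 (-4.00 and -4.73) and Ptgs1 (-3.82 and -4.47). The mast cell protease gene Cpa3 was at 0.154 and 0.09 in DP, 0.643 and 0.575 in C-LTMR and 0.0985 and 0.107 in DN, while Kit, the other tested gene of the mast cell list, was at 1.04 and 1.33 in DP, 0.616 and 1.26 in C-LTMR and 29.4 and 27.9 in DN. The mast cell genes Mcpt4 and Fcer1a were listed at 0 in all 6 libraries.

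The comparisons with DN depended on how libraries were scaled. Over 18 pan-sensory-neuron genes the median log2 RPKM of DP replicates 1 and 2 was 0.392 and 0.501 above the mean of all libraries, that of C-LTMR replicates 0.22 and 0.206 above it, and those of DN replicates stood at -0.471 and -0.847 relative to it. Setting these medians equal moved the median log2 fold change of all genes from -0.20 to -1.31 in DP over DN and from -0.10 to -0.97 in C-LTMR over DN, and from -0.05 to -0.28 in DP over C-LTMR. These are medians of levels, and the genes in the middle can differ between libraries. The median of the 18 genes' own log2 fold changes was 0.456, 0.577 and 0.023 in the same order. Each move was larger than that, so the rescaling may overcorrect, and a scaling by those medians was not tested. Relative to the moved median, Il6st at -0.39 and Lifr at 0.06 in DP over DN lay above that median. The number of members called in DP over DN was 6 on both scales, with 5 higher and 1 lower as deposited and 3 higher and 3 lower after rescaling. Ptgdr, Il31ra and Plcb3 stayed higher in DP than in DN on that scale, and Il4ra and Osmr joined Il13ra1 among those lower. In DP over C-LTMR the split was 5 higher and 2 lower on both scales.

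**Figure D5:**
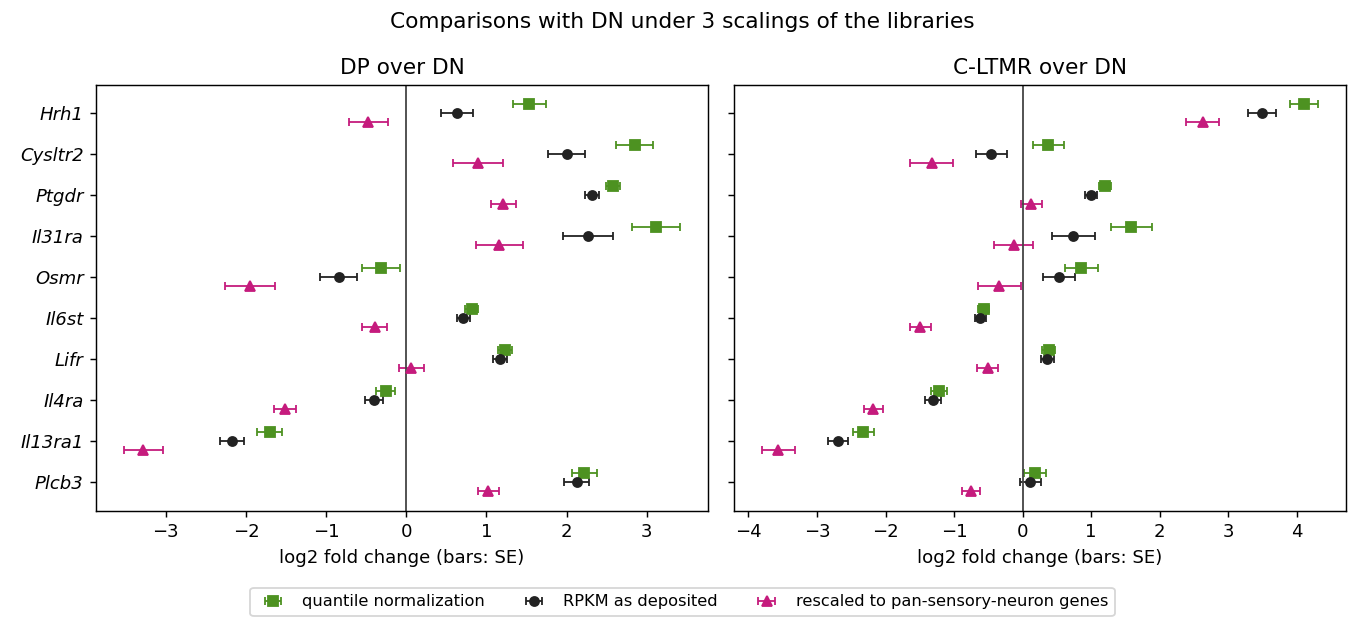
Log2 fold change (x axis, with SE bars) of the 10 genes in DP over DN (left) and C-LTMR over DN (right) with RPKM as deposited (circles), quantile normalization (squares) and rescaling to pan-sensory-neuron genes (triangles). Hrh1 in DP over DN lies at 1.53, 0.63 and -0.47 under quantile normalization (called), as deposited and rescaled (neither called), and Il13ra1 lies left of 0 under all 3.

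Genes whose pattern over the 6 libraries was most like a member's were sought among 11613 genes with a mean of at least 1 RPKM, by the root mean square difference of log2(RPKM + 0.1) centred on each gene's own mean. For Hrh1 they were Fam122b (0.166) and Iqcg (0.203), both at several times the level of DP and DN in C-LTMR. For Ptgdr they were Xylt2 (0.073) and Eml1 (0.0801), for Plcb3 Bid (0.113) and Insm2 (0.12), and for Il31ra 3632451O06Rik (0.206) and Fbxw7 (0.207). For the shared chains they were Pkia (0.0834) and 2700081O15Rik (0.0842) for Il6st, Mdga2 (0.0605) and Osbpl5 (0.0618) for Lifr, and Fermt2 (0.167) and Tm6sf1 (0.188) for Osmr. For the IL-4 and IL-13 chains they were Arl4c (0.0563) and Mpv17 (0.0877) for Il4ra, and Lyn (0.093) and Btg1 (0.0952) for Il13ra1. Cysltr2 was under 1 RPKM in every subset's mean and was not searched.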

How the data were processed

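Total RNA of sorted cells was amplified from 50 ng before library construction, per the labels' protocols. CASAVA 1.8.2, edgeR 2.6.2 and the build GRCm38 (mm10) are named in the submitters' processing notes, with no role given, and they state neither the annotation nor whether reads were counted by strand. The authors deposited RPKM for 23029 genes and a signal table of TMM-normalized counts for 6620 genes, which holds 5 of the 10 members and served as an alternative. Whole counts were not recovered, so no count model was fitted.

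RPKM values were taken as log2(RPKM + 0.1), a scale that understates the change of low genes, and fitted with limma 3.58.1 in R 4.3.3 (moderated statistics with an intensity trend) over all 6 libraries. The fit was tested on simulated data of 15544 genes for DP over C-LTMR. Of 100 genes changed by 3 on the log2 scale 100 were called, of 100 changed by 1.5 91 were called, and 7 unchanged genes were called. The changed genes were drawn from those with a positive mean of log2(RPKM + 0.1), so recovery was not tested for lower genes, among them Cysltr2, Il31ra and Hrh1. Depth was estimated from the steps of values under 0.05 RPKM in single-transcript genes, at 42.1 and 38.3 M reads in DP, 34.2 and 32.3 in C-LTMR and 39.0 and 32.3 in DN. Reads behind a value were estimated with the gene's longest GENCODE M21 transcript and cover counting error only, since reads carry no molecular identifiers. All 10 members matched RefSeq by Entrez ID. Promoter windows were those nearest to the deposited gene start.

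Members and gene lists were chosen with earlier results of these data known. Text names all members, the called genes of each pathway or itch-neuron list with the largest changes, up to 4 a comparison, and partners of members. Gnaq, Nppb, Grp, Cpa3 and Kit were named after their values were seen. Alternatives were 2 other pseudocounts, 2 other filters, 2 other scalings, the TMM-normalized table, the 4 libraries compared alone, a replicate block and leaving out each library. Python 3.11.15, numpy 2.4.6, pandas 2.3.3 and matplotlib 3.10.9 served for tables and plots.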

Additional observations from a re-analysis of the deposited data

How the results depend on the processing

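With a pseudocount of 1, fewer genes were called (1192 in DP over C-LTMR, 3140 in DP over DN and 3012 in C-LTMR over DN, against 2358, 5172 and 4993), as low genes then show smaller folds. The TMM-normalized table, with fewer genes and 5 members, gave 843, 1645 and 1562 genes and 3, 3 and 1 members. Rescaling to pan-sensory-neuron genes gave 10675 genes in DP over DN (373 higher and 10302 lower, against 1205 and 3967) and 8052 in C-LTMR over DN (543 and 7509, against 1334 and 3659). It gave 703 higher and 1724 lower genes in DP over C-LTMR, against 1033 and 1325. Quantile normalization split DP over DN into 2480 higher and 2716 lower, and C-LTMR over DN into 2507 and 2605. Members called in DP over DN were 7 under quantile normalization, which added Hrh1, against 6. Members called in C-LTMR over DN were 5 under quantile normalization (with Ptgdr and Il31ra) and 5 after rescaling (with Il6st and Cysltr2), against 3, and between 3 and 5 when a library was left out. The cause was not tested. Signs turned after rescaling for Hrh1 (-0.47) and Il6st (-0.39) in DP over DN and for Il31ra (-0.13), Osmr (-0.34), Lifr (-0.51) and Plcb3 (-0.76) in C-LTMR over DN. As given above, this rescaling moved the comparisons by more than the median log2 fold change of the pan-sensory-neuron genes themselves, and may overcorrect. In C-LTMR over DN, signs also turned for Cysltr2 under quantile normalization (0.38) and for Plcb3 without DN replicate 2 (-0.11, up to 0.34 without DN replicate 1), and neither was called there.

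Replicate numbers were shared by the subsets, but no source says that they pair the samples, and differences between replicates 1 and 2 correlated across genes with r = 0.286 for DP and C-LTMR, 0.0888 for DP and DN and 0.23 for C-LTMR and DN. With the replicate block 2442, 5208 and 5018 genes and 7, 6 and 3 members were called. Depth limits Cysltr2, with an estimated 5.0 to 10.6 reads in each C-LTMR and DN library.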
